A study of Mus musculus with 6 samples.

Results

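Genes that mark plasmacytoid and conventional dendritic cells were followed in mouse bone marrow RNA-seq. The 10 genes were taken by name from the table of raw counts, whose 49315 Ensembl identifiers were matched to symbols. Siglech, Tcf4, Ccr9 and Ly6d stand for plasmacytoid cells, and Zbtb46, Xcr1, Clec9a, Batf3, Cd209a and Itgax for conventional cells. All 10 passed the filter on low counts, as did 16956 genes in all. The animals labelled WT carried floxed, undeleted alleles of the microRNA locus miR-181a2b2 (miR-181a2b2flox/flox), and those labelled KO lacked it (miR-181a2b2-/-). Every animal of both groups had been fed the HFSC diet and had hindlimb ischemia, a block of blood flow to a hind leg. There were 3 libraries of each genotype, WT replicates 1, 3 and 4 and KO replicates 2, 3 and 4. The labels state neither age, sex nor a Cre line, nor whether each library was 1 animal. The p-values therefore cover only spread among these samples, which may be technical.

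Dendritic cells take up antigen and present it to T cells. Plasmacytoid dendritic cells sense viral nucleic acid through endosomal Toll-like receptors and release type I interferon, and their identity depends on the E-box factor TCF4. Conventional dendritic cells carry the factor ZBTB46 and fall into type 1 cells, which need BATF3 and IRF8 and take up dead cells, and type 2 cells, which depend more on IRF4. Both kinds arise in bone marrow from precursors that need the cytokine receptor FLT3.

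The genotypes differ in a microRNA locus, so the mature microRNAs are shown first, with the seed (bases 2 to 8), the stretch that pairs with targets, in capitals. The sequences are from RefSeq (GRCm38.p6).
mmu-miR-181a-5p: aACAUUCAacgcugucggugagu
mmu-miR-181b-5p: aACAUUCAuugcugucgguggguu
Both share 1 seed, and both are also made from a second locus on chromosome 1, which the labels do not name as deleted. A match to this seed, the letters TGAATGT, or GAATGTA at the end next to base 1, was looked for in the longest annotated 3' UTR of each gene. Of the 10 dendritic cell genes only Tcf4 held such a match, 1 of 7 letters. Among all 21037 genes with a 3' UTR 21% held at least 1.

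The start-site regions of 3 genes are printed because they are the genes whose levels are contrasted below: Siglech, with coinciding ranges, Zbtb46, without overlap between them, and Cd209a, low in 2 libraries. Each runs from 250 bases before to 50 after the RefSeq start (GRCm38.p6), read 5' to 3' on the gene's strand. Capitals mark the letters of 5 motifs of factors known in these cells, searched on both strands: the E-box CANNTG, the AP-1 motif TGANTCA, the ETS-IRF composite element, the PU.1 core GAGGAA, which can overlap the composite, and the interferon-stimulated response element (ISRE). Siglech lies at chr7:55767934-55768233 on the + strand, Zbtb46 at chr2:181424339-181424638 on the - strand and Cd209a at chr8:3748935-3749234 on the - strand.
Siglech: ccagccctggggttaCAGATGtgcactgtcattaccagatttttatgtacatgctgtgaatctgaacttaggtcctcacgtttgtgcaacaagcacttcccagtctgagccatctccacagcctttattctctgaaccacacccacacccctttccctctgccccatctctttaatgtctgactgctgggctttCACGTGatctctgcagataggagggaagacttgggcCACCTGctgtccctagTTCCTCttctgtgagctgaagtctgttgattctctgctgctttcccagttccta
Zbtb46: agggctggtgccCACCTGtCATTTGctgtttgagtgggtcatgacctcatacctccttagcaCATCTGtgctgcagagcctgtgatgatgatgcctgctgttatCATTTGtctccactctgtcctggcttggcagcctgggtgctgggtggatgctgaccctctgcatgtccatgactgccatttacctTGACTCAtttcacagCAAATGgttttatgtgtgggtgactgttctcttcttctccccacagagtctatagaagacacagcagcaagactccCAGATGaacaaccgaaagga
Cd209a: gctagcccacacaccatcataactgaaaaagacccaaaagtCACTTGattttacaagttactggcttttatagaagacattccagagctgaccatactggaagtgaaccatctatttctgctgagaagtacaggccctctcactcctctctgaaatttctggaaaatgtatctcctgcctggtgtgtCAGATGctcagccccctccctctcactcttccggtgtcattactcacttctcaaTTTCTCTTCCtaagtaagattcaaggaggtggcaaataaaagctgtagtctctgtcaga
The Siglech window held 3 E-boxes and 1 PU.1 core. The Zbtb46 window held 6 E-boxes and 1 AP-1 motif. It lay inside the annotated gene, whose 5' end on the - strand is at 181459426. Its motifs may therefore not be those of the promoter in use. The Cd209a window held 2 E-boxes and 1 ETS-IRF composite next to the start, a motif that 2.72% of all 32851 windows of this length held. E-boxes were in 72.3% of all windows, AP-1 motifs in 7.81%, PU.1 cores in 28.3% and the ISRE in 3.44%. Of the 8 dendritic cell genes with an entry, all held an E-box, 2 an AP-1 motif (Zbtb46 and Itgax), 2 a PU.1 core (Siglech and Batf3), 1 the composite (Cd209a) and 0 the ISRE. Like that of Zbtb46, the windows of Ccr9 and Batf3 lay inside their annotated genes. Such matches describe letters, not binding.

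Total counts lay between 33861440 and 40359093 per library, so that 3 counts, the limit that a count of 0 allows, were between 0.0743 and 0.0886 CPM (the count scaled to a fixed library total; gene values below also carry TMM factors), counting error only. The extraction text in the labels names white adipose tissue, and of 6 adipocyte genes Plin1, Lep and Cidec were below the filter, while Adipoq was at 2.70 to 6.62 CPM, Cfd at 0.279 to 0.980 CPM and Lpl, which macrophages also make, at 23.5 to 41.6 CPM. In KO libraries 7 of 8 early-response genes such as Fos and Fosb fell (edgeR, adjusted p under 0.05), beside 1.52% of all genes. The 8 summed to 1621 to 2216 CPM in KO against 4345 to 5488 CPM in WT. Of 8 neutrophil genes 3, S100a8 among them, rose past the threshold, beside 0.938% of all genes. S100a9 was also higher (log2 0.68) but missed it (edgeR adjusted p = 0.0532). All 8 were higher in KO without overlap between the groups, against 14.4% of all genes. The 8 genes summed to 49751 to 62446 CPM in KO against 33229 to 41338 CPM in WT. Of 6 erythroid genes 1 fell, beside 1.52% of all genes, and the hemoglobin genes Hbb-bs and Hba-a1 had log2 fold changes of -0.30 and -0.41. The part of these differences in the dendritic cell values was not tested. KO replicates 3 and 4 stood apart in B lineage genes: 10 B cell precursor genes summed to 127 and 138 CPM there, against 399 CPM in KO replicate 2 and 309 to 503 CPM in WT. Xist was below 1 CPM in WT replicate 1 and KO replicates 3 and 4 and above it in the other libraries.

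None of the 10 genes differed between KO and WT past the threshold (edgeR quasi-likelihood test over all genes tested, Benjamini-Hochberg adjusted p under 0.05). The background was 2.46% of genes tested (417 of 16956), so that 0 of 10 does not set these genes apart. At an unadjusted p under 0.05 there were 2 of 10, both lower in KO, against 23.9% of all genes, and the same 2, Tcf4 and Zbtb46, had no overlap between the groups, against 29.1%. Over all genes 0.938% rose and 1.52% fell, 12.2% were lower with an unadjusted p under 0.05, and 14.7% were lower and 14.4% higher without overlap. Of the 10 genes 8 had a negative log2 fold change, against 51.1% of all genes. DESeq2 called 1, Zbtb46, against 11.4% of all genes, and limma 0, against 4.64%. Also 0 were called with DESeq2 size factors in edgeR (2.37% of all genes), library totals only (2.89%), a stricter filter on level (3.6%), an Xist covariate (1.23%) and length and GC trends removed (2.02%). There was 1 call with no filter (Zbtb46, 4.91%), with a replicate block (Cd209a, 3.37%) and without KO replicate 2 (Cd209a, 3.27%). None was called without WT replicate 1 (0.19%), WT replicate 3 (1.16%), WT replicate 4 (0.216%), KO replicate 3 (5.27%) or KO replicate 4 (0.186%). The median log2 fold change (KO minus WT) was -0.062 over the 4 plasmacytoid genes and -0.25 over the 6 conventional genes, beside -0.01 over all genes tested. In bulk marrow, fewer cells of a type and less RNA per cell cannot be told apart.

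**Figure D1:**
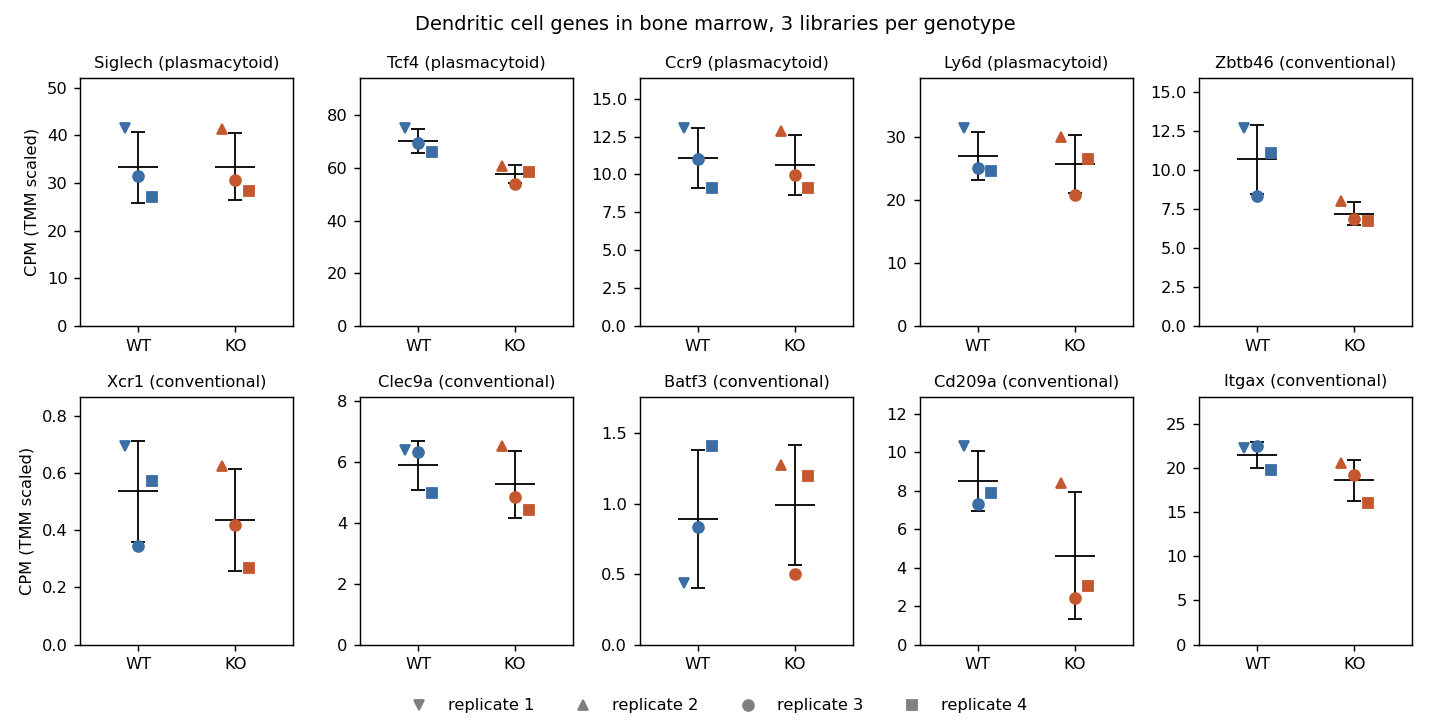
Level of each of the 10 genes in CPM (y axis, from 0) in the 3 WT (blue) and 3 KO (orange) libraries, the marker shape giving the replicate number and black bars the mean and SD. WT and KO points are apart in Tcf4 and Zbtb46, lie over each other in Siglech, and in Cd209a 2 KO points lie far below the other 4.

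Levels were compared between genes per exon length, as RPKM (CPM per kilobase of exon). The length counted all annotated exons of a gene together, not those of the transcript in use. The order therefore depends on the annotation. Tcf4, with 27382 such bases, had the highest mean CPM of the 10 genes, 64.0, but not the highest RPKM. Ly6d, a small surface protein of plasmacytoid cells and early lymphoid cells, was highest at a mean of 35.5 RPKM over the 6 libraries. Siglech, the sialic acid-binding receptor most restricted to mouse plasmacytoid cells, followed at 9.88 RPKM. Itgax, which encodes the integrin CD11c, lay at 4.17 RPKM and Cd209a, a C-type lectin of type 2 and monocyte-related cells, at 4.14 RPKM. Tcf4 lay at 2.34 RPKM, Clec9a, the receptor for dead cells on type 1 cells, at 1.69 RPKM, Ccr9, a chemokine receptor, at 1.06 RPKM and Zbtb46 at 1.05 RPKM. Batf3 lay at 0.590 RPKM and Xcr1, the chemokine receptor of type 1 cells, lowest at 0.109 RPKM. The ranges over the 6 libraries did not overlap between Ly6d and Siglech, Siglech and Itgax, Clec9a and Ccr9, or Batf3 and Xcr1. The other neighbours in this order overlapped.

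**Figure D2:**
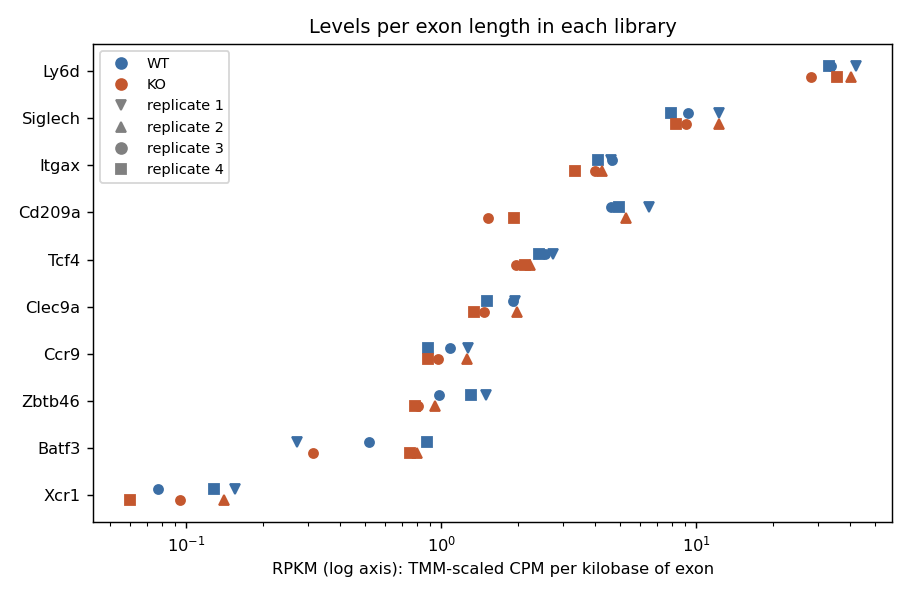
Level per exon length (x axis, RPKM, log axis) of the 10 genes ordered by their mean, 1 point per library with WT in blue and KO in orange. Ly6d and Siglech stand above the rest, and Xcr1 stands below Batf3 in every library.

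Siglech (ENSMUSG00000051504, chromosome 7, 55768178 to 55778925, GRCm38) had 41.6, 31.5 and 27.0 CPM in WT replicates 1, 3 and 4 and 41.4, 30.7 and 28.3 CPM in KO replicates 2, 3 and 4. Each genotype had 1 high library and the ranges coincided. WT averaged 33.4 ± 7.45 CPM and KO 33.5 ± 6.98 CPM (SD, n = 3 each). This gave a log2 fold change of 0.0052 ± 0.19 (SE, edgeR adjusted p = 0.991). KO levels between 0.742 and 1.36 times the WT level lay inside the 95% interval. The sign of so small a value changed with library totals as the only scaling (-0.061).

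Ccr9 (ENSMUSG00000029530, chromosome 9, 123678439 to 123784330), the receptor for the gut and thymus chemokine CCL25, is carried by most plasmacytoid cells and also by lymphoid progenitors. It had 13.1, 11.05 and 9.11 CPM in WT and 12.9, 9.95 and 9.10 CPM in KO. The same 2 libraries were high as for Siglech, WT replicate 1 and KO replicate 2. The log2 fold change was -0.057 ± 0.18 (SE, edgeR adjusted p = 0.873). The annotated gene overlaps Lztfl1 and Slc6a20a on the opposite strand, and since no source states the strand setting of the counting, their reads cannot be told apart where they overlap.

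Ly6d (ENSMUSG00000034634, chromosome 15, 74762056 to 74763620) had 31.5, 25.1 and 24.6 CPM in WT and 30.0, 20.9 and 26.6 CPM in KO. The groups overlapped, with a log2 fold change of -0.068 ± 0.15 (SE, edgeR adjusted p = 0.816). The gene is also active in B cell progenitors. B cell precursor genes summed to 138 CPM in KO replicate 4 and 503 CPM in WT replicate 4, where Ly6d was at 26.6 and 24.6 CPM.

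Tcf4 (ENSMUSG00000053477) encodes the E-box factor that sets plasmacytoid identity, and is also made by B lineage and stromal cells. It had 75.1, 69.6 and 66.0 CPM in WT and 60.8, 53.9 and 58.4 CPM in KO. Every KO library was below every WT library. The log2 fold change was -0.28 ± 0.09 (SE) and did not pass the threshold (edgeR adjusted p = 0.101). It was negative in 14 of 15 alternatives, between -0.33 and -0.22 with 1 library left out, and was called in 0. The exception was removal of length and GC trends in each library, with a value of 0.067 (edgeR adjusted p = 0.819). The exons of Tcf4 span 27382 bases, the most of the 10 genes, and the part of length in these values was not tested.

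Among the conventional genes Zbtb46 (ENSMUSG00000027583, chromosome 2, 181387762 to 181459426), the factor shared by both types of conventional cell and also made by endothelium, had 12.7, 8.32 and 11.1 CPM in WT and 8.05, 6.90 and 6.72 CPM in KO. The lowest WT library stood just above the highest KO library. WT averaged 10.7 ± 2.22 CPM and KO 7.23 ± 0.718 CPM (SD, n = 3 each). The 95% interval, not adjusted for the number of genes tested, ran from 0.515 to 0.884 times the WT level. The log2 fold change of -0.57 ± 0.17 (SE) missed the threshold (edgeR adjusted p = 0.101). It was negative in all 15 alternatives, between -0.72 and -0.43, and was called with DESeq2 (adjusted p = 0.0351) and without a filter on low counts (adjusted p = 0.0288). The 6 endothelial genes summed to 70.6 to 86.2 CPM in WT and 62.4 to 77.3 CPM in KO. The median log2 fold change of these genes was 0.017, with 0 of 6 past the threshold. At an unadjusted p under 0.05 Cdh5 was higher and Pecam1 lower. Cdh5 and Kdr, endothelial receptors, were at 0.45 and -0.23. Mature B cell genes had a median of -1.02, with 0 of 6 past the threshold. Over the 6 libraries Pearson's r of log2 CPM with Zbtb46 was 0.95 for the B cell gene Ms4a1 and 0.79 for Pax5. High values were not limited to B cell genes. The maturation gene Ccr7 had 0.94, Tcf4 0.84 and Cd209a 0.81, while Clec9a had 0.45 and Batf3 -0.20. The genes quoted are a selection from those compared. The part of endothelial or B lineage cells in the Zbtb46 values was not tested.

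The 3 genes of type 1 conventional cells overlapped between genotypes. Clec9a (ENSMUSG00000046080, chromosome 6, 129408862 to 129424763) had 6.39, 6.31 and 4.96 CPM in WT and 6.50, 4.84 and 4.43 CPM in KO, with a log2 fold change of -0.16 ± 0.19 (SE, edgeR adjusted p = 0.644). Its annotation overlaps Clec1b, a platelet receptor gene on the same strand, and reads in the overlap are uncertain. Xcr1 (ENSMUSG00000060509, chromosome 9, 123852315 to 123862029) had only 24, 14 and 24 reads in WT and 21, 15 and 10 in KO. Batf3 (ENSMUSG00000026630, chromosome 1, 191097847 to 191108945), the factor these cells require, had 15, 34 and 59 reads in WT and 43, 18 and 45 in KO. The log2 fold changes were -0.30 ± 0.42 for Xcr1 and 0.14 ± 0.47 for Batf3 (SE, edgeR adjusted p = 0.702 and 0.882). Their 95% intervals ran from 0.425 to 1.56 times the WT level for Xcr1 and from 0.532 to 2.29 times for Batf3. At this depth, changes of 1.5-fold upward in either gene, or of 2-fold downward in Xcr1, would lie inside those intervals. Batf3 was positive in 9 and negative in 5 of the 14 alternatives that gave a value.

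Cd209a (ENSMUSG00000031494, chromosome 8, 3743397 to 3748984) had 10.3, 7.32 and 7.90 CPM in WT and 8.40, 2.40 and 3.04 CPM in KO. KO replicates 3 and 4 were at 28.3% and 35.8% of the WT mean, and KO replicate 2 at 98.9%, inside the WT range. WT averaged 8.50 ± 1.58 CPM and KO 4.62 ± 3.30 CPM (SD, n = 3 each), and the log2 fold change of -0.88 ± 0.47 (SE) did not pass (edgeR adjusted p = 0.304). Without KO replicate 2 it was -1.63 and passed (edgeR adjusted p = 0.0103). The replicate block gave -1.49 (edgeR adjusted p = 0.00353). Only replicates 3 and 4 inform the comparison under that block, so it also sets KO replicate 2 aside and is not separate support. The gene belongs to a family of related lectins, and how reads matching more than 1 copy were counted is not stated.

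The same 2 KO libraries were low in other genes, which were chosen after their values were seen. Spib, an ETS factor of plasmacytoid and B cells, had 63.7, 59.2 and 73.9 CPM in WT and 66.8, 23.1 and 26.1 CPM in KO. Irf4, the factor of type 2 conventional cells and of activated B cells, had 30.7, 34.9 and 49.8 CPM in WT and 35.0, 11.8 and 11.3 CPM in KO. Both overlapped between genotypes and neither passed (edgeR adjusted p = 0.375 and 0.330), but both were called without KO replicate 2. Pax5, the factor of B cell commitment, was at 23.3% of the WT mean in KO replicate 3, at 22.9% in KO replicate 4 and at 80.5% in KO replicate 2. Siglech, the plasmacytoid marker, was at 92.2%, 84.7% and 124% in KO replicates 3, 4 and 2. Of the 10 B cell precursor genes, among them Vpreb1 and Igll1 of the surrogate light chain, 10 had negative log2 fold changes, beside 51.1% of all genes. Their sum was low in KO replicates 3 and 4 (127 and 138 CPM) but not in KO replicate 2 (399 CPM). They are therefore not 10 separate observations. Of these genes edgeR called 0, none of them reaching an unadjusted p under 0.05 either. Of 6 mature B cell genes, among them Ms4a1 (CD20) and Cr2, 0 passed. At an unadjusted p under 0.05 there were 5 lower, beside 12.2% of all genes. The part of B lineage cells in the values of Cd209a, Spib, Irf4, Tcf4 and Zbtb46 was not tested.

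**Figure D3:**
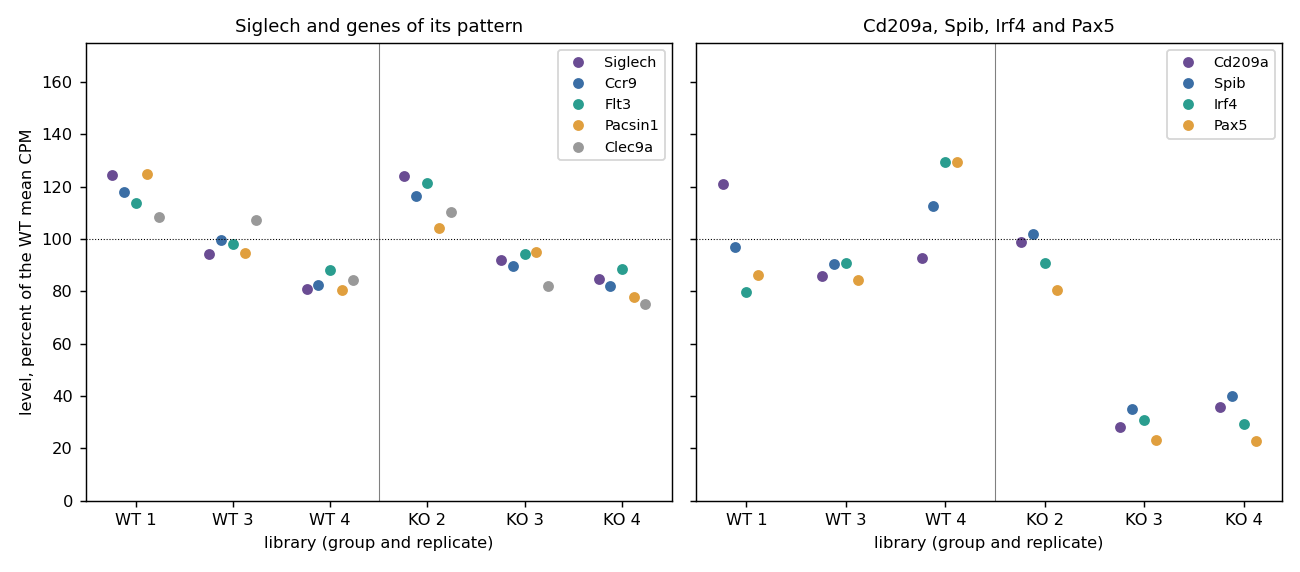
Level in each library as percent of the WT mean CPM (y axis, from 0; dotted line at 100) for Siglech, Ccr9, Flt3, Pacsin1 and Clec9a (left) and for Cd209a, Spib, Irf4 and Pax5 (right). On the left WT replicate 1 and KO replicate 2 are high for Siglech, Ccr9 and Flt3; on the right KO replicates 3 and 4 lie between 22.9% and 39.9% of the WT mean and KO replicate 2 between 80.5% and 102%.

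Itgax (ENSMUSG00000030789, chromosome 7, 128129547 to 128150657), whose product CD11c is also found on monocytes, macrophages and natural killer cells, had 22.3, 22.4 and 19.8 CPM in WT and 20.6, 19.2 and 16.0 CPM in KO. The groups overlapped by 1 library each, KO replicate 2 and WT replicate 4. The log2 fold change was -0.21 ± 0.12 (SE, edgeR adjusted p = 0.310). Monocyte genes summed to 1773 to 2192 CPM in WT and 2053 to 2551 CPM in KO. Of these 1 of 8 passed, beside 2.46% of all genes. It was Ly6c2, a monocyte surface protein, which rose (log2 0.50, edgeR adjusted p = 0.0474). Cx3cr1, a chemokine receptor, at -0.71 and Cd14, a receptor for bacterial lipopolysaccharide, at -0.65 were lower with an unadjusted p under 0.05, and Csf1r and Ccr2, receptors of monocytes, were at -0.03 each. Macrophage genes summed to 273 to 293 CPM in WT and 278 to 356 CPM in KO. Of these 1 of 8 passed, beside the same 2.46%: Siglec1, a sialic acid receptor, fell, while Vcam1 did not pass. T and natural killer cell genes summed to 44.3 to 58.9 CPM in WT and 46.2 to 53.9 CPM in KO, with 0 of 8 past the threshold, Cd3e and Cd3g included.

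Plasmacytoid and conventional genes were set against each other within each library, as the mean log2 CPM of the 4 minus that of the 6. This difference was 2.998, 2.92 and 2.53 in WT replicates 1, 3 and 4 and 2.84, 3.21 and 3.17 in KO replicates 2, 3 and 4. KO replicate 2 lay inside the WT range and the other 2 KO libraries above it. It averaged 2.82 ± 0.25 in WT and 3.07 ± 0.20 in KO (SD, n = 3 each), given as a description with no test. KO minus WT was thus 0.26, and 0.33 with Tcf4 and Ly6d left out, which B lineage cells also make. It was 0.61 with medians over genes, where KO at 2.28 to 2.90 lay above WT at 2.04 to 2.16. It was 0.11 without WT replicate 4. Without Cd209a, a choice made after seeing the data, it was also 0.11, and all 3 KO libraries, at 3.02 to 3.20, lay inside the WT range of 2.70 to 3.26.

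**Figure D4:**
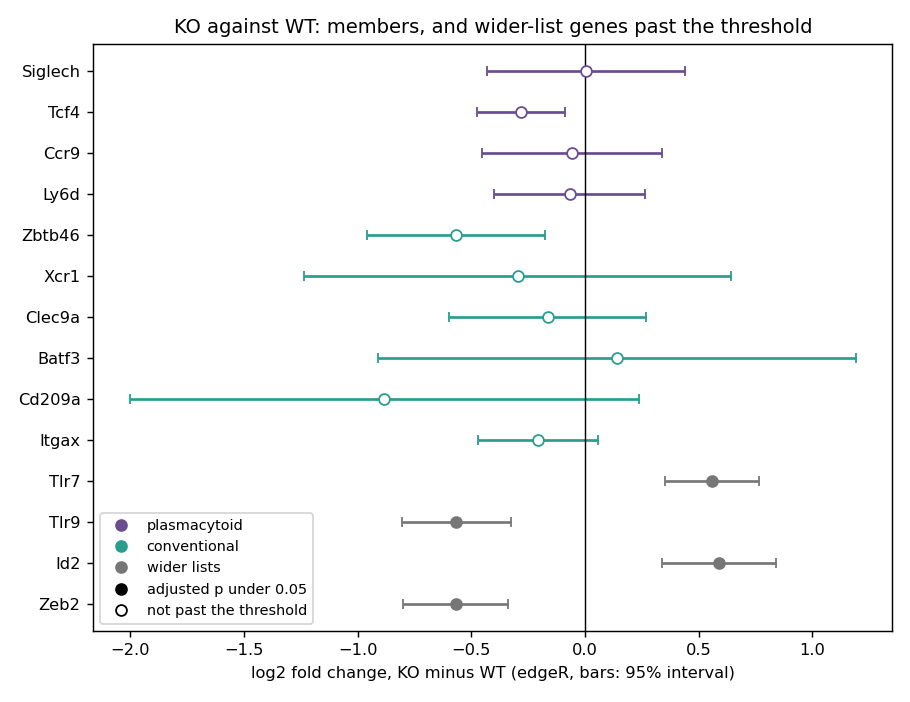
log2 fold change (x axis, KO minus WT, edgeR) with 95% intervals for the 10 genes (purple plasmacytoid, green conventional) and for the 4 genes of the wider lists past the threshold (grey). Filled points passed an adjusted p under 0.05; all 10 open points are the dendritic cell genes named here, and the intervals of Tcf4 and Zbtb46 lie below 0.

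Wider lists held 56 further dendritic cell genes, of which 54 were tested: 2 rose, 2 fell and 50 did not pass (edgeR), that is 4 of 54 beside 2.46% of all genes. DESeq2 called 11, beside 11.4% of all genes, and limma 6, beside 4.64%. The median log2 fold change was 0.0069. At an unadjusted p under 0.05 there were 10 higher and 7 lower of 54, beside 23.9% of all genes in both directions.

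Of 15 further plasmacytoid genes, 1 rose and 1 fell, beside 0.938% and 1.52% of all genes, with a median log2 fold change of -0.035. At an unadjusted p under 0.05 there were 1 higher and 3 lower, beside 23.9% of all genes in both directions. Tlr7, the endosomal receptor for single-stranded RNA, had 27.1, 30.2 and 30.7 CPM in WT and 40.0, 44.3 and 45.3 CPM in KO, a 1.47-fold rise (log2 0.56 ± 0.09 SE, edgeR adjusted p = 0.0252). Tlr9, the receptor for unmethylated CpG DNA, had 19.3, 17.9 and 18.2 CPM in WT and 11.998, 13.6 and 11.8 CPM in KO, a 1.48-fold fall (log2 -0.57 ± 0.11 SE, edgeR adjusted p = 0.0365). The groups did not overlap in either gene, so that these 2 receptors known from plasmacytoid cells differed in opposite directions. Both are also made by B cells, and Tlr7 by monocytes and macrophages. Tlr7 lies on the X chromosome. With Xist status (above or below 1 CPM) in the model its log2 fold change was 0.56 and it was still called, as was Tlr9. Both calls were lost when WT replicate 1, 3 or 4 or KO replicate 4 was left out (edgeR adjusted p 0.0515 to 0.0899 for Tlr7 and 0.0627 to 0.149 for Tlr9), and that of Tlr9 also without KO replicate 2 (0.0519) and with the replicate block (0.1001). Pacsin1, an endocytic adaptor that plasmacytoid cells need for interferon release and that was named after its values were seen, had 7.60, 5.77 and 4.91 CPM in WT and 6.36, 5.79 and 4.75 CPM in KO.

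Of 12 further type 1 genes 1 rose, 0 fell and 11 did not pass, beside 2.46% of all genes called. At an unadjusted p under 0.05 there were 3 higher and 1 lower, beside 23.9% of all genes in both directions. Id2, which restrains E proteins such as TCF4 and favours conventional over plasmacytoid fate, had 57.2, 56.5 and 65.7 CPM in WT and 94.8, 76.5 and 98.6 CPM in KO, a 1.505-fold rise (log2 0.59 ± 0.11 SE, edgeR adjusted p = 0.0382). All KO libraries were above all WT libraries, but Id2 is made by many marrow cells. Its 3' UTR held 1 match to the miR-181 seed, in capitals.
Id2 site: agtgtgtttatTGAATGTtgattgc
Wdfy4, needed for cross-presentation and also abundant in B cells, had a log2 fold change of -0.42 (edgeR adjusted p = 0.101). Of 9 further type 2 genes 0 passed in edgeR, while DESeq2 called 1 (beside 11.4% of all genes) and limma 0 (4.64%). At an unadjusted p under 0.05 there were 2, beside 23.9% of all genes. Both were higher, the C-type lectins Clec12a at 0.40 and Mgl2 at 0.32.

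Of 10 genes of growth and development 0 rose, 1 fell and 9 did not pass, beside 2.46% of all genes called. At an unadjusted p under 0.05 there were 3 higher and 1 lower, beside 23.9% of all genes in both directions. Zeb2, a zinc finger repressor that plasmacytoid and type 2 cells require, had 156, 180.7 and 156 CPM in WT and 111, 121 and 100.4 CPM in KO, a 1.48-fold fall (log2 -0.57 ± 0.10 SE, edgeR adjusted p = 0.0318). Its antisense gene Zeb2os overlaps it, and reads of the 2 cannot be told apart there. With the length and GC trend removed it was -0.30 and did not pass (adjusted p = 0.105). Its 3' UTR held 2 matches to the seed, shown with the matching letters in capitals.
Zeb2 site 1: tagccaaactaaGAATGTAgttaat
Zeb2 site 2: tagtcagtataTGAATGTAttcata
Of the 4 called genes the 2 with seed matches thus differed in direction, Id2 higher and Zeb2 lower in KO. Among the 56 genes of these lists 12 held a match, 21.4%, beside 21% of all genes with a 3' UTR. Spi1, which encodes the factor PU.1, had a log2 fold change of 0.45 (edgeR adjusted p = 0.0564).

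Of 10 maturation genes 8 were tested and 0 passed in edgeR, with Cd40 at a log2 fold change of -0.68 (adjusted p = 0.0729) and Cd86 at 0.44 (adjusted p = 0.0987), both costimulatory molecules. Ccr7, named after its values were seen, was at -1.11 (edgeR adjusted p = 0.123), and its groups overlapped. It had 9.37, 5.06 and 7.39 CPM in WT and 5.35, 2.35 and 2.40 CPM in KO. Ccr7 was called with DESeq2, without KO replicate 2 and with the replicate block, which also sets that library aside. At an unadjusted p under 0.05 there were 1 higher and 2 lower, beside 23.9% of all genes in both directions. DESeq2 called 3, beside 11.4% of all genes, and limma 1, beside 4.64%. Ccl17 and Il12b were below the filter. Id2 and Zeb2 lost their calls in the same 4 fits with 1 library left out as Tlr7 and Tlr9, and also with the Xist covariate, while all 4 genes kept their direction in all 15 alternatives. In those 4 fits between 32 and 199 genes were called in all.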

How the data were processed

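Poly(A)-selected RNA was sequenced from 6 bone marrow samples. The authors deposited raw read counts per Ensembl gene. Per the submitters' processing notes they used Trimmomatic 0.36, STAR 2.5.2b, featureCounts of Subread 1.5.2 and GRCm38. Settings, strand and annotation release: not given in the sources used here. Symbols, exon lengths and 3' UTRs came from GENCODE M21 (GRCm38), which named 49056 identifiers; 0.0171% of counts lacked a symbol. Counts were tested with edgeR 4.0.16 (R 4.3.3): filterByExpr, TMM, robust quasi-likelihood test, two-sided, Benjamini-Hochberg over 16956 genes. CPM are counts scaled to the filtered total times its TMM factor. The smallest exact permutation p for 3 against 3 is 0.1, so no single-value test was used. Alternatives were other scalings and filters, DESeq2 1.42.0, limma 3.58.1, a replicate block, an Xist covariate, removal of length and GC trends, and each library left out. The procedure was tested on simulated counts.

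The 10 genes, the wider lists and the naming rule were chosen with earlier results of these data known. The rule named the 10 genes, wider-list genes past the threshold, the 2 of smallest p per list, the first 2 of each marker list, and the 5 genes most like Siglech and Xcr1 (Pearson r of log2 CPM plus 0.1, mean log2 CPM of at least 1). One gene of the B cell precursor list is not reported here by itself.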

Additional observations from a re-analysis of the deposited data

How the results depend on the processing

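The number of the 10 dendritic cell genes called, 0, became 1 without a low-count filter, 1 with DESeq2 (Zbtb46 in both) and 1 with the replicate block (Cd209a), and lay between 0 and 1 when 1 library was left out. The wider lists gave 4 calls, but 9 with no filter, 11 with DESeq2, 7 with the replicate block, 2 with the Xist covariate and between 0 and 7 with 1 library left out. Over all genes 417 became 1492 with no filter, 1577 with DESeq2, 786 with limma, 209 with the Xist covariate and between 32 and 920 with 1 library left out. The share of higher genes was 38.1%, 17.8% with library totals only and 52.9% with DESeq2.

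Among the 10 genes 5 changed sign in some alternative; the other 5 and the 4 called wider genes did not. Siglech was -0.061 with library totals, -0.0094 with the stricter filter (mean log2 CPM at least 1) and -0.032 with length and GC trends removed, Ccr9 0.053 with limma and 0.091 with trends removed, Tcf4 0.067 with trends removed, and Batf3 -0.17 with limma and -0.45 with the replicate block. With 1 library left out Siglech lay between -0.17 and 0.19, Ccr9 between -0.21 and 0.078, Ly6d between -0.18 and 0.075 and Batf3 between -0.18 and 0.63. The cause was not tested. The plasmacytoid minus conventional difference of 0.26 (KO minus WT) was 0.61 with medians over genes, 0.11 without Cd209a (chosen after seeing the data) and between 0.11 and 0.37 with 1 library left out. The labels give only numbers 3 and 4 to both groups, and deviations from the group means correlated at 0.20 for number 3 and -0.13 for number 4, so the numbers were not taken as pairs. Xcr1 and Batf3 did not pass the stricter filter. Under the replicate block only the libraries numbered 3 and 4 inform the comparison.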

Other observations

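Over the 6 libraries the gene whose pattern was most like that of Siglech, among 11098 ranked genes, was Flt3, the cytokine receptor that dendritic cell precursors need. Flt3 had 28.4, 24.4 and 21.97 CPM in WT replicates 1, 3 and 4 and 30.2, 23.5 and 22.1 CPM in KO replicates 2, 3 and 4. Ccr9 came second, followed by Mycl, a MYC family factor known from dendritic cells, Gbp8, a guanylate-binding protein gene, and Snhg12, a noncoding RNA. Without WT replicate 1 and KO replicate 2, the libraries farthest from the Siglech median, Flt3 and Ccr9 remained close to it and Snhg12 less so. Pearson's r with Siglech was 0.98 for Flt3 and 0.98 for Ccr9 over 6 libraries, and 0.96 and 0.91 without those 2. These values describe libraries that share a processing and a count of only 6, and 21 genes had an r above 0.9.

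Xcr1, with 10 to 24 reads per library, was most like Trp53, Slc48a1, Elmod3, Ung and St3gal3, and 80 genes had an r above 0.9. Neither Clec9a nor Batf3, the other genes of type 1 cells, was among the 5.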
